A study of Homo sapiens with 9 samples.

Results

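The APOBEC3 cytidine deaminases and the ADAR adenosine deaminases were followed across 9 RNA-seq libraries of MM1S, an established cell line of human multiple myeloma. The members were 9 rows of the deposited count table, taken by symbol out of 58387 genes: APOBEC3A, APOBEC3B, APOBEC3C, APOBEC3D, APOBEC3F, APOBEC3G, APOBEC3H, ADAR and ADARB1. Of these, 8 passed the filter on low counts, as did 16600 genes in all, and APOBEC3A did not. Cells carried a lentiviral empty vector (shEV, n = 3), an shRNA against PHF19 (PHF19_KD, n = 3), or that knockdown with shRNA-resistant PHF19 restored (KD_Rescued, n = 2). The protein PHF19 belongs to Polycomb repressive complex 2, which methylates histone H3 at lysine 27, as an accessory subunit. All groups share the cell line, and the labels name no treatment beyond the lentivirus. One more library has a title that calls it a knockdown and an shRNA label that names shRNA-resistant PHF19. It entered no test and is called the library with disagreeing labels.

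APOBEC3 enzymes convert cytosine to uracil in single-stranded DNA and restrict retroviruses and retrotransposons. APOBEC3A and APOBEC3B are also known for cytosine mutations in tumour genomes, among them those of myelomas driven by MAF, as MM1S is. ADAR enzymes convert adenosine to inosine in double-stranded RNA. ADAR has an interferon-inducible isoform that keeps the cell's own RNA from being sensed as foreign, and ADARB1 is known for recoding neurotransmitter receptor transcripts.

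The libraries held from 10164100 to 23751400 estimated counts, with 16974700 to 22739700 in shEV, 10609800 to 12024900 in PHF19_KD and 23644100 to 23751400 in KD_Rescued. PHF19 was at 117 ± 11.8 CPM (counts normalised to library size, SD, n = 3) in shEV, 26.9 ± 0.86 (n = 3) in PHF19_KD, 219 ± 1.74 (n = 2) in KD_Rescued and 63.6 in the library with disagreeing labels. The library names place KD_Rescued in a different sequencing lane from all other libraries, and the rescue cannot be told apart from the lane. The share of counts from mitochondrially encoded genes was 3.16% ± 0.279 in shEV, 9.60% ± 0.518 in PHF19_KD and 5.08% ± 0.132 in KD_Rescued (SD). The calls of the members in PHF19_KD against shEV were as many with these genes left out, 3 higher and 3 lower. The plasma cell markers SDC1, TNFRSF17, IRF4, PRDM1, XBP1, MZB1 and MAF were present in every library, none below 115 CPM, and summed to 4420 to 4550 CPM in shEV, 4950 to 4990 in PHF19_KD and 4190 to 4260 in KD_Rescued. Within that sum 3 were called higher and 3 lower in the knockdown, with MAF at 619 and 1390 CPM in shEV and PHF19_KD, SDC1 at 676 and 1020, TNFRSF17 at 248 and 118 and IRF4 at 675 and 394, and their part in the results was not tested. In bulk RNA, fewer cells with a transcript and less of it per cell cannot be told apart.

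How well each gene can be counted depends on how much sequence it shares with its relatives. The APOBEC3 genes lie side by side on chromosome 22 and arose by duplication. Each holds 1 or 2 copies of a zinc-binding motif, and the stretch of coding sequence from its histidine to its last cysteine shows the problem. The stretches below, of 111 and 105 bases, were read from the longest protein-coding GENCODE 29 transcript of each gene, for the last motif in the protein. They are shown because 2 pairs of members cannot be told apart inside them. Capitals mark bases of APOBEC3C that differ from APOBEC3F.
APOBEC3A: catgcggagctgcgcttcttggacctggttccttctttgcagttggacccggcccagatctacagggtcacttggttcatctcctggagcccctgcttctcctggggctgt
APOBEC3B: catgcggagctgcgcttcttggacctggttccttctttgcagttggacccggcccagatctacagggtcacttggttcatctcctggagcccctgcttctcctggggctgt
APOBEC3D: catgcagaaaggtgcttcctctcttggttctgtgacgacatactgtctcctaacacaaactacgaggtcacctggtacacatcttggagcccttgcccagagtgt
APOBEC3F: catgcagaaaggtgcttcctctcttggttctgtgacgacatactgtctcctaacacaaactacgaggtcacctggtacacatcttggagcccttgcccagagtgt
APOBEC3C: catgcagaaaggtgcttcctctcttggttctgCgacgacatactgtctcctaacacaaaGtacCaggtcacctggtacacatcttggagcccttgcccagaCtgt
APOBEC3A and APOBEC3B differed at 0 of 111 bases, and APOBEC3D and APOBEC3F at 0 of 105. APOBEC3C differed from APOBEC3F at 4 bases. APOBEC3G and APOBEC3H stood farther off, with 46 and 48 differences from APOBEC3F.

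**Figure D1:**
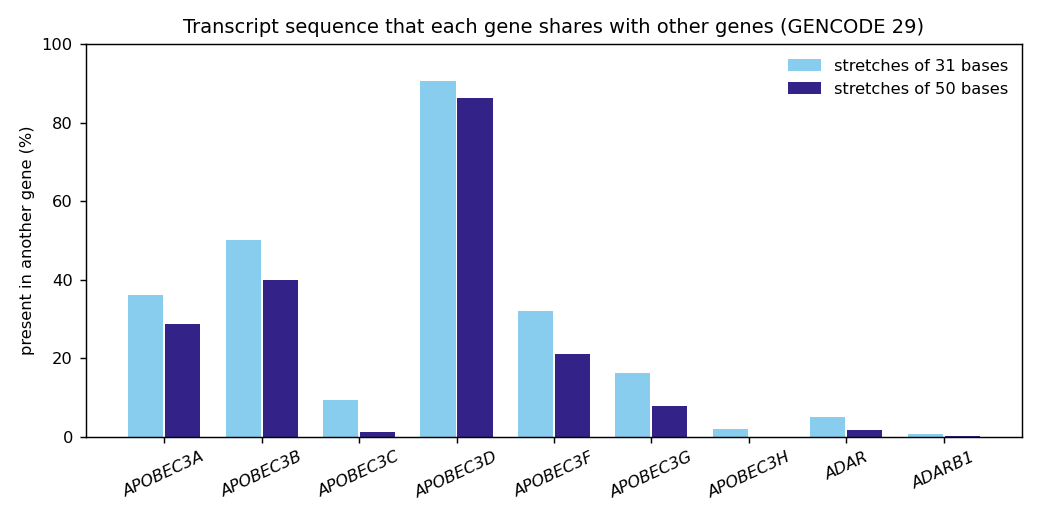
Bars give the percentage of a gene's transcript stretches of 31 or 50 bases (either strand) that also occur in a transcript of another gene in GENCODE 29, for each of the 9 genes. APOBEC3D shares most (86.2% at 50 bases) and APOBEC3H and ADARB1 share least (0% and 0.0878%).

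Over whole transcripts, 86.2% of the 50-base stretches of APOBEC3D occurred in another gene, most of them in AL022318.4, a readthrough gene that spans it. The share was 40.0% for APOBEC3B, 28.7% for APOBEC3A, 21.0% for APOBEC3F, 7.73% for APOBEC3G and 1.28% for APOBEC3C. It was 1.70% for ADAR, 0.0878% for ADARB1 and 0% for APOBEC3H. The deposited counts followed this order in part. Values of APOBEC3C, APOBEC3D, APOBEC3F and APOBEC3G were not whole in any of the 9 libraries (tolerance 0.01), as happens when a read is split between genes. Those of APOBEC3B were not whole in 7 libraries, those of ADAR in 2, that of ADARB1 in 1 and those of APOBEC3H in 0. The counts of the other APOBEC3 genes are thus uncertain between genes that share sequence, which need not be paralogs. Those of APOBEC3H and ADARB1 were hardly split.

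The members fell into a small set that moved several-fold and a larger set that moved little. APOBEC3B fell 4.32-fold in the knockdown and stood at 68.6% of the control level after rescue. APOBEC3H and ADARB1 rose about 3-fold in the knockdown (3.18-fold and 2.94-fold) and in the rescued cells lay below the controls. APOBEC3C, APOBEC3D, APOBEC3F, APOBEC3G and ADAR differed between PHF19_KD and shEV by at most 0.18 on the log2 scale, in either direction.

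**Figure D2:**
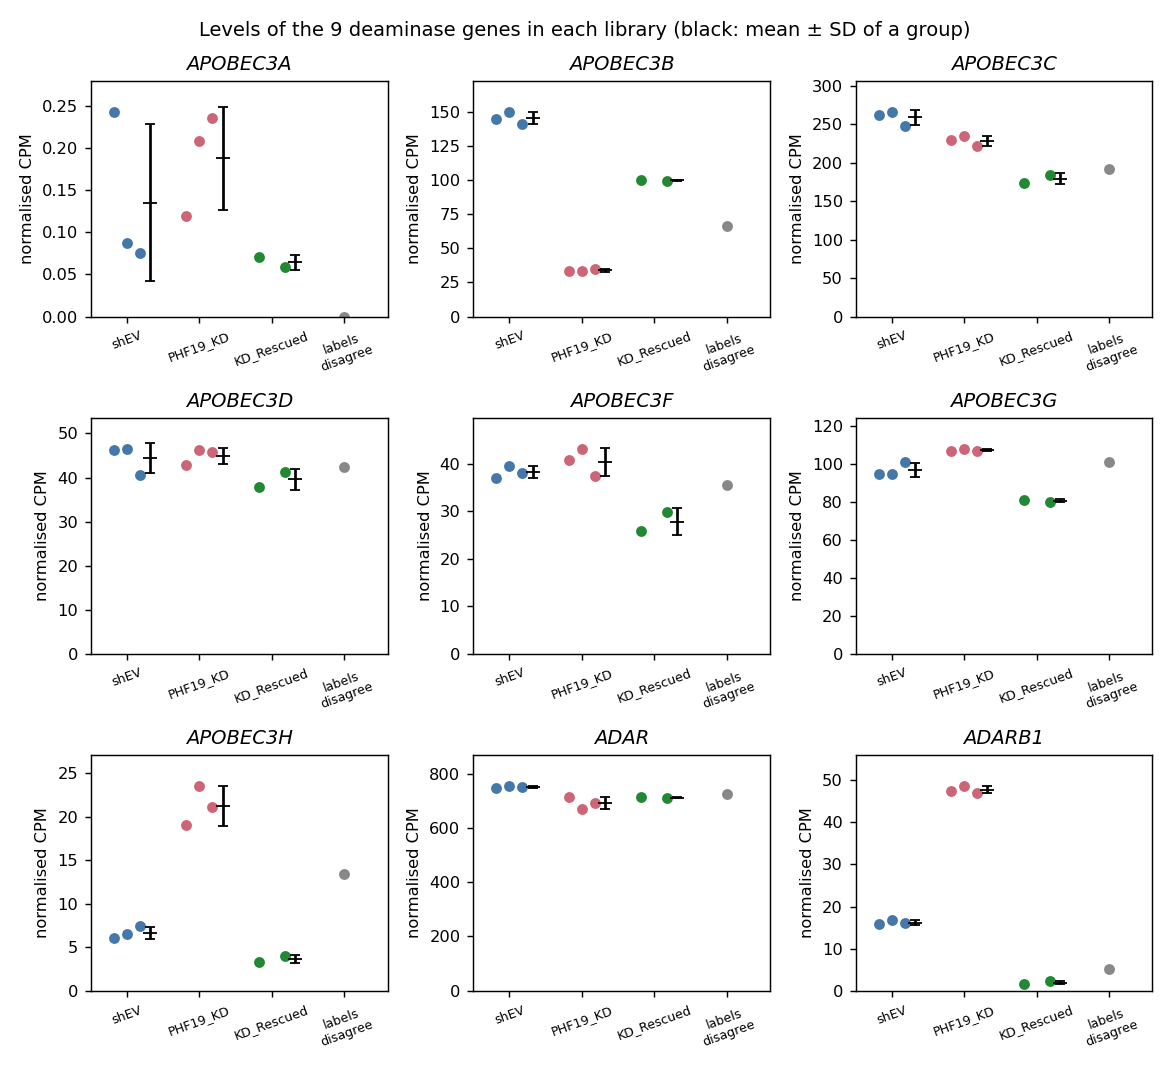
Each point is the normalised CPM of 1 library (linear axes from 0), by group, with the mean ± SD beside groups of 2 or 3. APOBEC3B is lowest in PHF19_KD, APOBEC3H and ADARB1 are highest there, and ADARB1 is lowest in KD_Rescued, at 1.66 and 2.25 CPM.

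Between PHF19_KD and shEV, 3 of the 8 tested members were called higher and 3 lower (edgeR's quasi-likelihood test, p adjusted by Benjamini-Hochberg over 16600 genes, below 0.05). Of all tested genes 34.9% were called higher and 34.2% lower, so a call by itself sets no member apart. For 6 members, and for 71.9% of all tested genes, the levels of the 2 groups did not overlap. The median log2 fold change was 0.05 over the members and 0.03 over all tested genes. Directions of the small changes depended on the scaling: upper-quartile scaling raised the median of all genes to 0.19, gave 5 members higher and 1 lower, and moved the share of calls that were higher over all genes from 50.5% to 60.6%. APOBEC3B, APOBEC3H and ADARB1 kept their direction under every scaling that was run.

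APOBEC3B, a nuclear deaminase and a source of tumour mutations, had levels of 145, 150 and 141 CPM in shEV, 33.1, 33.1 and 35 in PHF19_KD, and 100 and 99.3 in KD_Rescued. The 3 groups were fully apart, with the knockdown lowest and the rescued cells between it and the controls. It changed by -2.11 ± 0.05 on the log2 scale in PHF19_KD against shEV (SE, edgeR, adjusted p = 8.21e-12). KD_Rescued exceeded PHF19_KD by 1.57 ± 0.05 (adjusted p = 2.23e-10, same test). The return was not complete, since KD_Rescued stayed at 68.6% of the control mean (-0.54 ± 0.05, adjusted p = 8.23e-06), although that last call was lost when the library with disagreeing labels was counted as PHF19_KD (adjusted p = 0.138). In that library APOBEC3B was at 66.4 CPM, between the knockdown and the rescued cells, as PHF19 was between the knockdown and the controls.

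APOBEC3A, its closest relative and the member known from myeloid cells, was barely seen. Estimated counts ran from 1.28 to 5.39 per library in the 3 groups and were 0 in the library with disagreeing labels. They summed to 8.39 over shEV, 6.52 over PHF19_KD and 3.09 over KD_Rescued, and every library other than shEV replicate 1 lay under the floor of 3 counts. With a catalytic stretch identical to that of APOBEC3B, these few counts cannot be assigned with confidence, so no fold is given. Adding APOBEC3A to APOBEC3B before the fit, a choice made after seeing the data, left every APOBEC3B call in place. So few added counts could hardly have changed a call, and the sum does not bear on reads shared with other genes.

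APOBEC3H, a single-domain antiretroviral deaminase, had levels of 6.06, 6.52 and 7.43 CPM in shEV, 19.0, 23.5 and 21.1 in PHF19_KD, and 3.29 and 3.96 in KD_Rescued. Every knockdown library exceeded every other library, and the rescued ones were lowest. The log2 fold change was 1.68 ± 0.12 in PHF19_KD against shEV (SE, edgeR, adjusted p = 7.99e-08) and -2.55 ± 0.14 in KD_Rescued against PHF19_KD (adjusted p = 1.38e-08). Against shEV, KD_Rescued differed by -0.87 ± 0.15 (adjusted p = 7.05e-04, same test). That difference was lost when the library with disagreeing labels, at 13.4 CPM, was counted as KD_Rescued (-0.08, adjusted p = 0.927).

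ADARB1, the editor of receptor transcripts, had the widest range of the tested members on the log2 scale (SD 1.89 over 8 libraries). Its levels were 15.8, 16.8 and 16.0 CPM in shEV, 47.4, 48.6 and 47.0 in PHF19_KD, and 1.66 and 2.25 in KD_Rescued. No 2 groups overlapped, and the rescued cells were at 12.1% of the control mean. The log2 fold changes were 1.56 ± 0.07 for PHF19_KD against shEV (SE, edgeR, adjusted p = 2.75e-09), -4.60 ± 0.11 for KD_Rescued against PHF19_KD (adjusted p = 1.47e-11) and -3.05 ± 0.12 for KD_Rescued against shEV (adjusted p = 3.07e-08). ADARB1 thus passed below the control level in cells whose PHF19 was above it. In the library with disagreeing labels it was at 5.22 CPM, 32.2% of the control mean, and counting that library as PHF19_KD ended the call of the rise (1.22, adjusted p = 0.120).

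**Figure D3:**
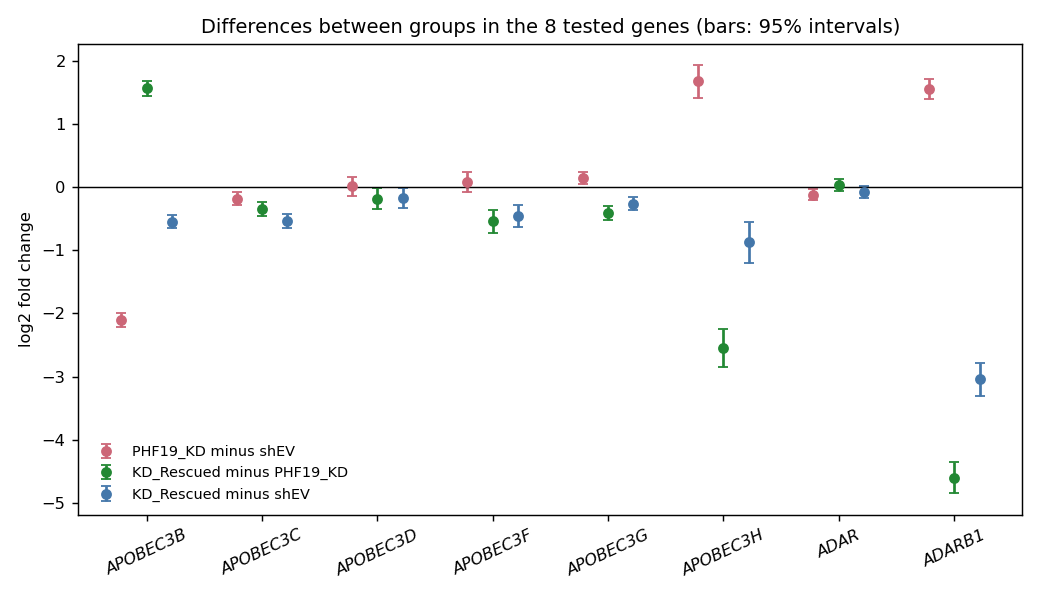
Points are log2 fold changes of the 8 tested genes in the 3 comparisons, with 95% intervals from the edgeR fit, and the line marks no difference. APOBEC3B, APOBEC3H and ADARB1 lie far from 0 in PHF19_KD minus shEV (-2.11, 1.68 and 1.56), and the other 5 lie between -0.18 and 0.15.

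The summed level of the monocyte markers had the same order of groups as ADARB1 and APOBEC3H. It was 20.4 to 23.2 CPM in shEV, 26.5 to 31.2 in PHF19_KD and 9.67 to 10.4 in KD_Rescued. CD68 and ITGAM made up nearly all of it, and CD68, at 20.6, 26.6 and 9.26 CPM in these groups, set the order. ITGAM, at 0.614, 2.72 and 0.644 CPM, was near its control level after rescue and not below it. The defining markers CD14, CSF1R and LYZ had at most 3, 4 and 1 counts in any library, and FCGR3A had 0. Of the 5 T and NK markers, CD3D and NKG7 had 0 counts in all libraries, and the list summed to between 1.30 and 2.30 CPM in the 3 groups.

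Of the remaining APOBEC3 genes, APOBEC3C, APOBEC3F and APOBEC3G were called lower in KD_Rescued against shEV, and APOBEC3D was not. APOBEC3C, a single-domain deaminase and the most counted APOBEC3 gene, was at 262, 266 and 248 CPM in shEV, 229, 234 and 221 in PHF19_KD, and 174 and 184 in KD_Rescued. It was thus lower at each step, by -0.18 ± 0.05 in PHF19_KD against shEV (SE, edgeR, adjusted p = 0.00355) and by -0.53 ± 0.05 in KD_Rescued against shEV (adjusted p = 1.22e-05). The knockdown call of APOBEC3C was lost with upper-quartile scaling (-0.03, adjusted p = 0.628), with a filter at 5 CPM (adjusted p = 0.0972) and with the library with disagreeing labels counted as KD_Rescued (adjusted p = 0.107).

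APOBEC3G, the deaminase best known for restricting HIV that lacks Vif, was at 94.8, 95 and 101 CPM in shEV, 107, 108 and 107 in PHF19_KD, and 81.2 and 80.1 in KD_Rescued. It was 0.15 ± 0.04 higher in PHF19_KD than in shEV (log2, SE, edgeR, adjusted p = 0.00963) and differed by -0.26 ± 0.05 between KD_Rescued and shEV (adjusted p = 0.00120). The rise was lost without a filter on low counts (0.06, adjusted p = 0.487) and with the library with disagreeing labels counted in either group (adjusted p = 0.0523 as PHF19_KD, 0.167 as KD_Rescued). Counted as KD_Rescued, that library, at 101 CPM, also ended the difference between rescued cells and controls (adjusted p = 0.261).

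APOBEC3F, a further restriction factor of retroviruses, was at 37.0, 39.5 and 38.1 CPM in shEV and 40.7, 43.1 and 37.3 in PHF19_KD. These groups overlapped, and the difference of 0.08 (95% interval -0.08 to 0.24) did not pass (adjusted p = 0.356, edgeR), although it did with upper-quartile scaling (adjusted p = 0.0121) and with a filter at 5 CPM (adjusted p = 0.0437). In KD_Rescued APOBEC3F was lower, at 25.8 and 29.8 CPM, by -0.46 ± 0.08 against shEV (SE, adjusted p = 8.79e-04). That call was lost with the library with disagreeing labels counted as KD_Rescued (adjusted p = 0.0724).

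APOBEC3D, a double-domain restriction factor, was at 46.2, 46.5 and 40.5 CPM in shEV, 42.9, 46.3 and 45.7 in PHF19_KD, and 37.9 and 41.2 in KD_Rescued. It passed in no comparison, with differences of 0.02 (95% interval -0.13 to 0.17), -0.19 (-0.35 to -0.02) and -0.17 (-0.33 to -0.01) in the order of the comparisons above. The edgeR adjusted p was 0.845, 0.0508 and 0.0884. KD_Rescued against PHF19_KD lay at the threshold and passed under 10 of 19 alternatives. Among them were leaving out shEV replicate 2 (adjusted p = 0.0395), shEV replicate 3 (0.00792) or PHF19_KD replicate 1 (0.0480). Another of the 10 summed APOBEC3D with APOBEC3F (-0.34, adjusted p = 6.22e-04), a choice made after seeing the data. APOBEC3F was itself called lower there (-0.54, edgeR adjusted p = 1.21e-04), so the pass of that sum does not bear on APOBEC3D alone. KD_Rescued against shEV passed under 4 of 19 alternatives. These were leaving out shEV replicate 3 (adjusted p = 0.00336), no filter on low counts, a replicate block, and the sum with APOBEC3F. PHF19_KD against shEV passed with upper-quartile scaling (0.17, adjusted p = 0.0341).

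ADAR, the interferon-inducible editor, was the most abundant member and the steadiest. Its levels were 748, 754 and 750 CPM in shEV, 715, 671 and 691 in PHF19_KD, and 713 and 709 in KD_Rescued. The knockdown libraries were all lower than the controls, and the rescued ones lay within the knockdown range. PHF19_KD differed from shEV by -0.12 ± 0.04 (log2, SE, edgeR, adjusted p = 0.0159). That call was lost under 7 of 18 alternatives. Among these, upper-quartile scaling turned the sign (0.04, adjusted p = 0.403), and leaving out PHF19_KD replicate 2 (adjusted p = 0.0880) or replicate 3 (adjusted p = 0.0653) ended it. In KD_Rescued ADAR differed from PHF19_KD by 0.04 (95% interval -0.05 to 0.13, adjusted p = 0.453) and from shEV by -0.08 (-0.17 to 0.01, adjusted p = 0.161), which DESeq2 did call (-0.13, adjusted p = 0.0122). The deposited table counts genes and not transcripts, so the interferon-inducible isoform was not measured apart.

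Between KD_Rescued and PHF19_KD, 1 member was called higher (APOBEC3B) and 5 lower, beside 33.9% and 29.5% of all tested genes. The groups did not overlap for 7 of the 8 members and for 77.2% of all tested genes. Besides APOBEC3H and ADARB1, the lower members were APOBEC3F (-0.54 ± 0.08, SE, edgeR adjusted p = 1.21e-04), APOBEC3G (-0.41 ± 0.05, 1.38e-05) and APOBEC3C (-0.35 ± 0.05, 7.61e-05), each of them called under all alternatives run. The median of the members was -0.38, and that of all tested genes 0.03. Upper-quartile scaling moved the share of calls that were higher from 53.4% to 42.1% over all genes and turned ADAR to -0.12 (adjusted p = 0.0374, edgeR). Between KD_Rescued and shEV, 0 members were called higher and 6 lower, beside 20.7% and 19.1% of all tested genes. The groups did not overlap for 7 members and for 61.8% of all tested genes, and the medians were -0.495 over the members and 0.02 over all tested genes. Both comparisons share the KD_Rescued libraries and their lane.

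Per length, ADAR and APOBEC3C were the most abundant members in the controls. Levels per kilobase of the longest protein-coding transcript were 112 ± 0.463 CPM per kb for ADAR in shEV (SD, n = 3), 91.7 ± 3.28 for APOBEC3C, 78.9 ± 2.46 for APOBEC3B and 52.8 ± 1.78 for APOBEC3G. Lower levels were those of APOBEC3D (17.6 ± 1.33), APOBEC3F (14.2 ± 0.478), APOBEC3H (6.38 ± 0.668) and ADARB1 (2.36 ± 0.0801). In PHF19_KD the order changed: APOBEC3B dropped to 18.3 ± 0.582 CPM per kb, beside APOBEC3H at 20.3 ± 2.16 and APOBEC3D at 17.8 ± 0.729, and these 3 neighbours did not differ beyond their spread. In KD_Rescued APOBEC3B again followed APOBEC3C (63.5 ± 2.60), at 54.2 ± 0.393 (n = 2), and ADARB1 was at 0.285 ± 0.0606.

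The make-up of the APOBEC3 counts does not depend on scaling between libraries. APOBEC3B held 24.5%, 24.9% and 24.5% of the counts of the 7 APOBEC3 genes in shEV and 7.01%, 6.78% and 7.48% in PHF19_KD. Its share was 23.8% and 22.7% in KD_Rescued and 14.7% in the library with disagreeing labels. The difference between PHF19_KD and shEV was -17.6 percentage points (exact two-sided permutation test, p = 0.10, the smallest that 3 against 3 libraries allow). APOBEC3H went from 1.13% ± 0.140 to 4.45% ± 0.400 (SD, n = 3 each) and APOBEC3G from 16.4% ± 0.915 to 22.6% ± 0.433, each with the same exact p of 0.10. The shares sum to 100%, so the fall of APOBEC3B raises the others: APOBEC3C held 43.8% in shEV and 47.9% in PHF19_KD while its level went from 258 to 228 CPM. A share that differs between the groups is thus no sign that the gene's own level did. The summed level of the 7 genes was 590 ± 13.8 CPM in shEV, 476 ± 10.8 in PHF19_KD and 431 ± 11.4 in KD_Rescued (SD, n = 3, 3 and 2).

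**Figure D4:**
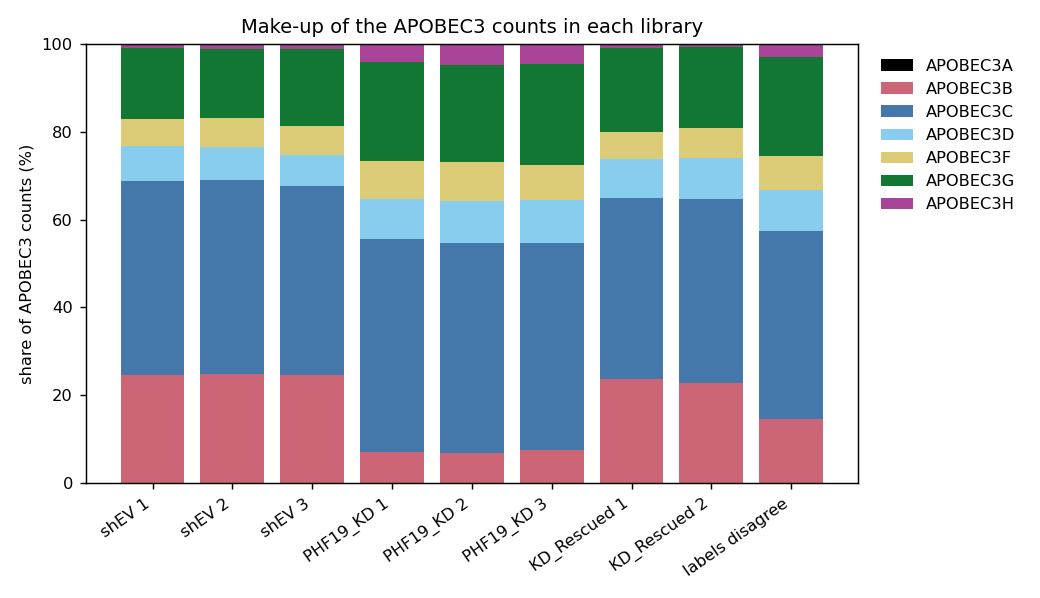
Stacked bars give the share of each APOBEC3 gene in the summed counts of the 7 genes, in percent, for each of the 9 libraries. The APOBEC3B segment is 6.78% to 7.48% in the 3 PHF19_KD libraries and 22.7% to 24.9% in the shEV and KD_Rescued libraries.

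The genes whose pattern was most like that of a member were ranked by the root mean square difference of centred log2 CPM over the 8 fitted libraries, among 12415 genes. For APOBEC3B these were the cyclin gene CCND2 (0.0823), the nuclear lamina protein gene TMPO (0.0878) and DUT (0.0889), which encodes the enzyme that keeps uracil out of DNA. For APOBEC3H they were the B cell kinase gene BTK (0.162), the thrombin receptor gene F2R (0.173) and CA14, a carbonic anhydrase gene (0.175). For ADARB1 the nearest was DUSP1, an immediate early phosphatase gene (0.254), followed at a distance by FOSB (0.589) and AL132988.1 (0.65). The nearest genes of the other 5 tested members, which varied little, lay at 0.0237 to 0.0511. DUSP1 was at 28.2 ± 0.88 CPM in shEV, 94.7 ± 1.3 in PHF19_KD and 5.29 ± 0.131 in KD_Rescued. The library with disagreeing labels, which the ranking did not use, parted them: ADARB1 was at 32.2% of its control mean there, and DUSP1 was at 25.2 CPM against 28.2. In the same library APOBEC3B was at 66.4 CPM against 146 in shEV, CCND2 at 207 against 512, TMPO at 190 against 490 and DUT at 46.3 against 110, the last 3 with counts split between genes in 8 or 9 libraries.

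Among the members themselves, APOBEC3F and APOBEC3G were most alike (0.114), and APOBEC3B and ADARB1 least alike (2.44). APOBEC3H and ADARB1, which both rose in the knockdown and fell after rescue, differed by 0.909, since after rescue ADARB1 was 24.3-fold lower than in the knockdown and APOBEC3H was at 17.1% of it.

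Start-site sequence was at hand for 3 members, APOBEC3H, ADARB1 and ADAR (RefSeq, GRCh38.p14). The 250 bases before the start are given for the pair that rose in the knockdown. CG dinucleotides, where Polycomb repressive complex 2 is known to gather when they are dense, are in capitals. APOBEC3H lies at chr22:39096994-39097243 on the plus strand, and the first of 4 ADARB1 starts at chr21:45074328-45074577, also on the plus strand.
APOBEC3H: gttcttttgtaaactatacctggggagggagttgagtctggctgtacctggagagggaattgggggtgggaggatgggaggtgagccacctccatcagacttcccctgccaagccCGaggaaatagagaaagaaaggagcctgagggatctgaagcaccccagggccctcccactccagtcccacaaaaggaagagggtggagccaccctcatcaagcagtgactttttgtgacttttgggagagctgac
ADARB1: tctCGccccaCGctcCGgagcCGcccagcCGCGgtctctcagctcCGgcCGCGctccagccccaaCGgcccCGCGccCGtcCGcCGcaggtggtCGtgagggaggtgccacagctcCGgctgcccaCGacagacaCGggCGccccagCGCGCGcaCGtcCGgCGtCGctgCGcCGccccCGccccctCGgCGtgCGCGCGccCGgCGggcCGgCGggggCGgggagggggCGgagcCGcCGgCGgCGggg
APOBEC3H had 1 CG in this window and ADARB1 45, against a median of 11 over 35116 such windows. Fewer CG than in the ADARB1 window were found in 99.4% of all windows, and fewer than in the APOBEC3H window in 6.06%. The other ADARB1 starts had 45, 42 and 12, and the 3 ADAR starts 12, 12 and 9. In the windows shown, the pair shared a direction of change and not a CG count. Which start is used in these cells was not measured, and a link of CG content to the changes was not tested. Motifs were searched on both strands: for interferon response GAAA, any 2 bases and GAAA again (in 3.02% of all windows), with the second of these bases as T in a narrower form (0.635%), TTTGAA for the cell cycle homology region (13.3%), TTCCCGC for E2F (5.52%) and GGGANTTCC for NF-kB (1.59%). None of the 5 had a match in the windows of the 3 members, which says only that these letters are not there.

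Further family members were close to silent. APOBEC2 had 10 counts over all 9 libraries, APOBEC4 and ADARB2 had 1 each, and APOBEC1, ADAD1 and ADAD2 had 0. None of these passed the filter on low counts.

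Genes that act after a deaminase were mostly lower in the knockdown. Among 15 genes of uracil excision and base excision repair, 10 fell and 3 rose (median log2 fold change -0.55, beside 0.03 for all tested genes). Of all tested genes, 34.9% were called higher and 34.2% lower there, and 33.9% and 29.5% in KD_Rescued against PHF19_KD. These shares are the background for the lists that follow too. UNG, which removes uracil from DNA, went from 137 ± 2.18 to 29.7 ± 1.91 CPM (-2.20 ± 0.05, SE, edgeR adjusted p = 1.19e-11), and DUT, whose count is split between genes, from 110 ± 8.13 to 26.3 ± 1.44 (SD, n = 3 each). NEIL1, a glycosylase for oxidised bases whose count is split likewise, rose by 2.14 ± 0.13. In KD_Rescued against PHF19_KD, 10 of the 15 rose and 2 fell, UNG reaching 103 ± 2.13 CPM (SD, n = 2). Of 13 genes of mismatch repair and translesion synthesis, 1 rose and 11 fell in the knockdown (median -0.68), with EXO1, the exonuclease of mismatch repair, going from 69.7 ± 0.332 to 5.44 ± 0.63 CPM (SD, n = 3 each). After rescue, 10 rose and 2 fell.

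Of 13 DREAM complex genes and E2F partners, a set known to control APOBEC3B, 2 rose and 10 fell in the knockdown (median -1.14), and 10 rose and 2 fell after rescue (median 1.05). The set holds parts of the repressor and genes of cycling cells, and its part in the level of APOBEC3B was not tested. MYBL2, which replaces the repressor in cycling cells, went from 353 ± 33.4 to 19.8 ± 1.42 CPM and back to 348 ± 1.79 (SD, n = 3, 3 and 2). RBL2, a pocket protein of the repressive form whose count is also split, changed by 0.17 ± 0.05 in the knockdown (SE, edgeR adjusted p = 0.00504), a call lost with no filter on low counts (0.08, adjusted p = 0.301) and with the library with disagreeing labels in either group (adjusted p = 0.0743 as PHF19_KD, 0.0709 as KD_Rescued).

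Sensors of double-stranded RNA and interferon signalling factors went the other way. Of 12 sensing genes, 9 rose and 1 fell in the knockdown (median 0.32). The rises were 10 with upper-quartile scaling, and 6 with DESeq2 or with the library with disagreeing labels counted as KD_Rescued. DHX58, a helicase that tunes RNA sensing, went from 1.72 ± 0.136 to 14.9 ± 1.29 CPM, and OAS1, an activator of RNase L, changed by 0.81 ± 0.08 (SE, edgeR adjusted p = 1.27e-06). After rescue 2 rose and 7 fell, the falls being 10 with upper-quartile scaling and 3 with the library with disagreeing labels counted as KD_Rescued. Of 15 interferon signalling factors, 12 rose and 1 fell in the knockdown (median 0.35), with IRF1 from 87.4 ± 1.59 to 160 ± 3.29 CPM, while ADAR itself was at -0.12, or at 0.04 with upper-quartile scaling. Rises among the 15 were 13 with upper-quartile scaling. They were 9 without a filter on low counts or with the library with disagreeing labels counted as KD_Rescued. Of 12 double-stranded RNA binding partners of ADAR, 2 rose and 8 fell (median -0.465), in the direction of the repair lists, and with DESeq2 0 rose. ILF2 was at -1.06 ± 0.04 and DHX9 at -0.95 ± 0.04, both with counts split between genes. The medians of these lists kept their sign in PHF19_KD against shEV under every scaling and filter that was run, as did those of the repair and DREAM lists.

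**Figure D5:**
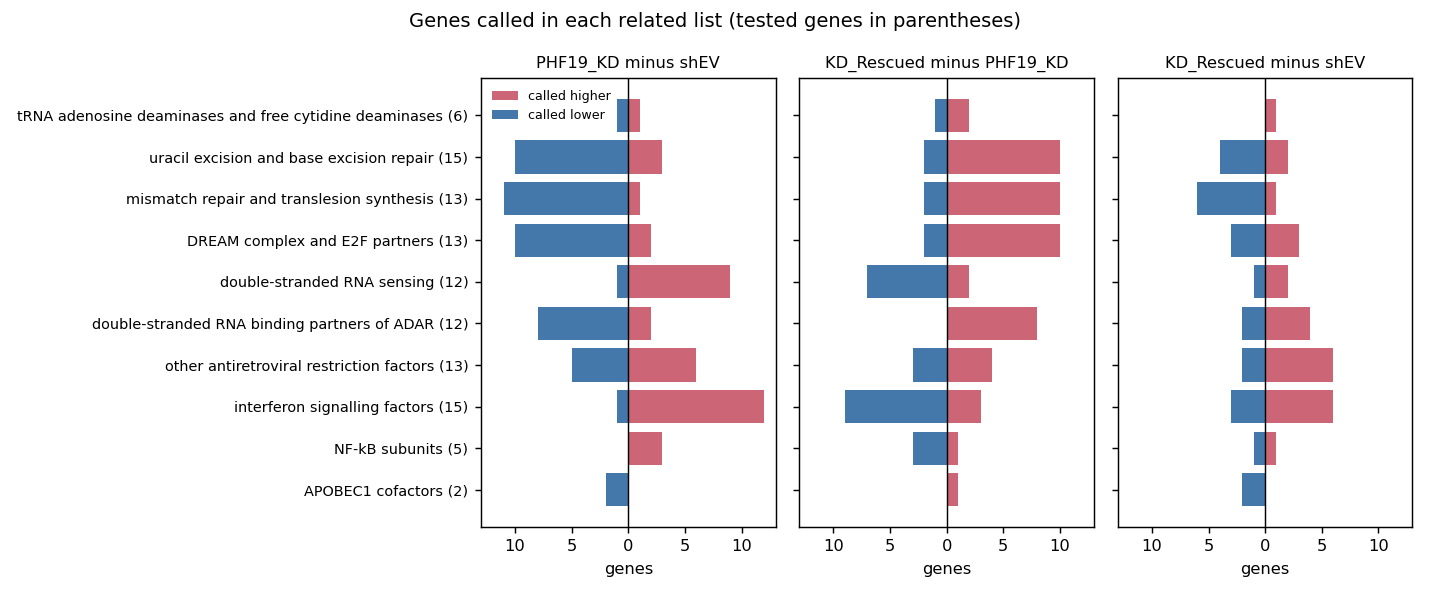
Bars to the right count genes called higher and bars to the left genes called lower (edgeR, adjusted p below 0.05) in 10 related lists, for each comparison. In PHF19_KD minus shEV the repair and DREAM lists extend to the left (10, 11 and 10 genes) and the sensing and interferon lists to the right (9 and 12).

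The other lists were mixed or short. Of 13 other restriction factors, 6 rose and 5 fell in the knockdown, near the 34.9% and 34.2% of all tested genes. The falls were 3 with upper-quartile scaling and with the library with disagreeing labels counted as KD_Rescued. MX2, whose count is split between genes, changed by 3.11 ± 0.13 and RNASEH2A by -2.06 ± 0.09, and the median of the list changed sign with upper-quartile scaling (-0.04 to 0.12). The 5 NF-kB subunits, too few to read against that background, had 3 rises and 0 falls, with 1 fall without a filter on low counts or without mitochondrially encoded genes. Among the rises was RELB, a subunit known to drive APOBEC3B, at 0.53 ± 0.09 (SE, edgeR adjusted p = 2.01e-04). Its part in the level of APOBEC3B was not tested. Of 6 tested tRNA and free nucleoside deaminases 1 rose and 1 fell, ADA by -1.28 ± 0.09. A filter at 5 CPM gave 4 rises, as did upper-quartile scaling, and DESeq2 gave 0. Both tested APOBEC1 cofactors fell, SYNCRIP, whose count is split between genes, by -1.37 ± 0.05 and RBM47 by -0.49 ± 0.06.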

How the data were processed

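RNA-seq libraries of MM1S cells were made with an Illumina TruSeq kit from total RNA, per the labels' protocols. The authors deposited estimated counts per gene, not scaled between libraries. The submitters' processing notes list RSEM, CASAVA and hg19 with no role for each, while the table's own name refers to salmon, so the counting program is not settled. For annotation and strand, the sources used here give nothing. Without a known strand setting, reads of antisense partners cannot be told apart.

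The estimated counts were rounded and tested with edgeR 4.0.16 (R 4.3.3): filterByExpr (minimum count 10, minimum total 15), TMM scaling, robust dispersions, glmQLFit and glmQLFTest over 8 libraries in 1 fit with group means. KD_Rescued, with 2 libraries, shared the spread of the others. Adjusted p-values are Benjamini-Hochberg over 16600 genes, called below 0.05. Standard errors are the fold change over the square root of F. Normalised CPM were scaled by the total over tested genes and the TMM factor. The fit was tested on simulated data in which far fewer genes changed than were called here. That test cannot probe the choice of scaling. DESeq2 1.42.0, limma-voom (limma 3.58.1) and other alternatives were run beside it. Sequences came from RefSeq (GRCh38.p14) and GENCODE 29, whose build differs from that of the counts.

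The members and gene lists were chosen with earlier results of these data known. Named from each list were at most the 2 called rises and 2 called falls of smallest adjusted p, or, with no call, the 2 most abundant genes, and the text gives part of them. For each member the 3 nearest genes with a mean log2 CPM of at least 1 (prior count 2) were ranked. All 9 members are described, and some genes of the related lists are not reported here. Nothing in the labels says that replicates were separate cultures, so the p-values reflect only how these libraries spread, possibly for technical reasons. Replicate pairs differed by more than counting noise (chi-square per degree of freedom 1.37 to 9.15, genes with a sum of at least 20), and shEV replicate 3 stood farthest from its group.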

Additional observations from a re-analysis of the deposited data

Results flagged for a closer look

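The library with disagreeing labels, used in no test, held 2 members above every shEV library. APOBEC3H was at 13.4 CPM there, against 6.06 to 7.43 CPM in shEV and 19.0 to 23.5 in PHF19_KD. APOBEC3G was at 101 CPM after rounding, just above shEV replicate 3, which is also 101 CPM when rounded.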

How the results depend on the processing

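APOBEC3B, APOBEC3H and ADARB1 kept their direction in each comparison under all alternatives run, and in PHF19_KD against shEV their log2 fold changes ranged from -2.20 to -1.79, 1.55 to 1.83 and 1.22 to 1.71. Smaller differences depended on scaling, filter and the library with disagreeing labels, and the cause was not tested. Upper-quartile scaling turned ADAR to 0.039 in PHF19_KD against shEV and to -0.12 in KD_Rescued against PHF19_KD, and gave 5 members higher and 1 lower in the knockdown. A filter at 5 CPM gave 1 member lower there. With the library of disagreeing labels taken as PHF19_KD there was 1 member higher there, with 4047 genes called in KD_Rescued against shEV in place of 6599, with PHF19 at 0.86 (adjusted p = 0.105, edgeR). Counting it as KD_Rescued gave 1 member lower in the knockdown, 3 members lower in KD_Rescued against shEV, 2464 genes called there, with PHF19 at 0.49 (adjusted p = 0.380), and 6207 of 10526 in KD_Rescued against PHF19_KD. Leaving out 1 library at a time gave 4048 to 7539 genes called in KD_Rescued against shEV, fewest without either KD_Rescued library (4253 and 4048), where the lone one is assumed to vary like the other groups. Replicate numbers are shared between groups. The correlation of deviations in same-numbered libraries passed 0.1 in 1 of 7 pairs (-0.05 to 0.13). Between shEV and PHF19_KD it was 0.0164, 0.128 and 0.0828 for numbers 1, 2 and 3. Pairs of unlike number in these groups ran from -0.111 to 0.0142. With so few libraries, these values do not settle whether the numbers mark a pairing. With a replicate block, 11537, 10341 and 6387 genes were called in the 3 comparisons, against 11476, 10526 and 6599, and APOBEC3D passed in KD_Rescued against PHF19_KD (-0.22, adjusted p = 0.0243) and against shEV (-0.20, adjusted p = 0.0438).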
